A study of Rattus norvegicus with 110 samples.

Results

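Ahr (ENSRNOG00000004342), Cyp1a1 (ENSRNOG00000019500) and Cyp1a2 (ENSRNOG00000016173) are a receptor and 2 of its targets, 3 of the 31998 gene identifiers counted in this rat study. They were chosen by name, and all 3 were present in both the liver and the kidney table. Ahr encodes the aryl hydrocarbon receptor, a transcription factor that waits in the cytoplasm until it binds a ligand such as a dioxin, a polycyclic aromatic hydrocarbon or a tryptophan metabolite. The bound receptor enters the nucleus, pairs with Arnt and binds short DNA sites called xenobiotic response elements, and the cytochrome P450 genes Cyp1a1 and Cyp1a2 are its standard targets. Cyp1a2, which oxidises caffeine and aromatic amines, is made in the unexposed liver, mainly around the central veins, whereas Cyp1a1 is scarcely made anywhere until the receptor is activated.

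The animals were young adult male outbred Sprague Dawley rats of the F2 generation, given olive oil alone (vehicle), 8% carbon tetrachloride (CCl4) in olive oil (low dose) or 50% CCl4 (high dose). CCl4 is a solvent whose breakdown by hepatocytes injures the liver and scars it. All animals were dosed by oral gavage at 0.5 mL/kg, 3 times a week, and tissue was taken on day 39, a day after the last dose. The 4 cohorts differed in ancestry. CCl4 had been given to neither paternal generation of cohort A (groups 11 to 13), to the F1 sires of cohort B (14 to 16), to the F0 grandsires of cohort C (17 to 19) and to both in cohort D (20 to 22). A treated ancestor had received 50% CCl4 for 6 weeks and recovered for 2 weeks before mating, control ancestors had received olive oil, and only males were dosed in any generation. Livers came from 7 males a group (6 in group 17), and kidneys from the same 27 vehicle males of groups 11, 14, 17 and 20, so that no kidney had been exposed to CCl4 directly.

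The males came from 34 litters of 17 F0 sires, and tissue was taken on 4 necropsy dates that each held males of every cohort. The 83 liver libraries held 31638559 to 51343589 estimated counts and the 27 kidney libraries 21961746 to 35055218, and no libraries were identical. Levels are given as CPM, the usual scale of counts relative to the library total, after TMM scaling of those totals within an organ unless stated otherwise. Tat, a liver-specific amino acid enzyme, was higher in liver by 12.17 on the log2 scale and the tubule gene Lrp2 was lower in liver (log2 difference -7.19), as the organ labels state. Litter was shared between some males, so p-values over animals take littermates as independent. In these bulk samples, fewer cells of a type and less RNA per cell cannot be told apart.

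Before the values, the stretches of DNA just upstream of 2 of the genes are shown, because they differ in the kind of promoter they form. Each line gives the 250 bases before the start of the gene, 5′ to 3′ on the gene's strand, from RefSeq on GRCr8. They lie at chr6:57998902-57999151 (minus strand) for Ahr and at chr8:66978150-66978399 (minus strand) for Cyp1a2. Capitals mark a GC box (GGGCGG or its complement CCGCCC) in Ahr and a TATA box (TATAAA) in Cyp1a2.

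Ahr: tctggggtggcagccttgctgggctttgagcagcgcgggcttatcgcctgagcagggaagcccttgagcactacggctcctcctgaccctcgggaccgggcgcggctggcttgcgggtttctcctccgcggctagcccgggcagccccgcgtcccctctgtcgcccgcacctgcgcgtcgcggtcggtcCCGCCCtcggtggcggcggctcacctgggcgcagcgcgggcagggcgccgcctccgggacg

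Cyp1a2: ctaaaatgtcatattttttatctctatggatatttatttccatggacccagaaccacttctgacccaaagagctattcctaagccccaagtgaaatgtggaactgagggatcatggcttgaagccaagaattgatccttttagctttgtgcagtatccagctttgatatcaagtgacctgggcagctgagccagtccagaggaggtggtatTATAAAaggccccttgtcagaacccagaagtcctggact

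The Ahr stretch was 75.2% G and C, more than 96.6% of the 27457 rat promoters of the same length, whose median was 52%, and held 1 GC box 61 bases before the start. The Cyp1a2 stretch was 44% G and C, more than 23.6% of promoters, and held 1 TATA box 39 bases before the start. The GC box letters were found on either strand in 32.1% of all promoters and the TATA box letters in 13.2%. The core letters of a xenobiotic response element (GCGTG, or CACGC on the other strand) were in neither window and in 26.9% of all promoters. Cyp1a1 and Cyp1a2 are neighbours on the same chromosome with 0 annotated genes between them.

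Ahr, the receptor, was detected in every library. Taken one at a time, cohort accounted for 18.9% of the variance of its log2 level in liver, dose for 9.13% and necropsy date for 8.58%. The highest livers were vehicle and low-dose males of cohorts A and B, and the spread was narrowest in high-dose livers. In cohort A, Ahr ran from 28.4 to 108 CPM in vehicle livers (median 71.4), from 31.3 to 97.0 at the low dose (median 47.4) and from 24.6 to 48.1 at the high dose (median 41.6). In cohort B it ran from 29.8 to 93.6 CPM in vehicle livers (median 45.4), from 26.9 to 76.2 at the low dose (median 56.7) and from 22.5 to 53.7 at the high dose (median 42.6). The top of the range fell away with dose in both cohorts while the bottom stayed between 22.5 and 31.3 CPM.

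In cohort C, Ahr ran from 18.8 to 47.1 CPM in vehicle livers (median 32.3), from 30.9 to 59.1 at the low dose (median 39.5) and from 20.1 to 36.5 at the high dose (median 29.3). In cohort D it ran from 19.2 to 46.2 CPM in vehicle livers (median 32.5), from 25.8 to 48.6 at the low dose (median 42.1) and from 23.7 to 46.7 at the high dose (median 31.0). In these cohorts the low-dose medians were the highest of the 3. By median, the order of the 12 liver groups began with A vehicle, B low, A low, B vehicle and B high and ended with D vehicle, C vehicle, D high and C high, and all 11 neighbouring pairs in that order overlapped.

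**Figure D1:**
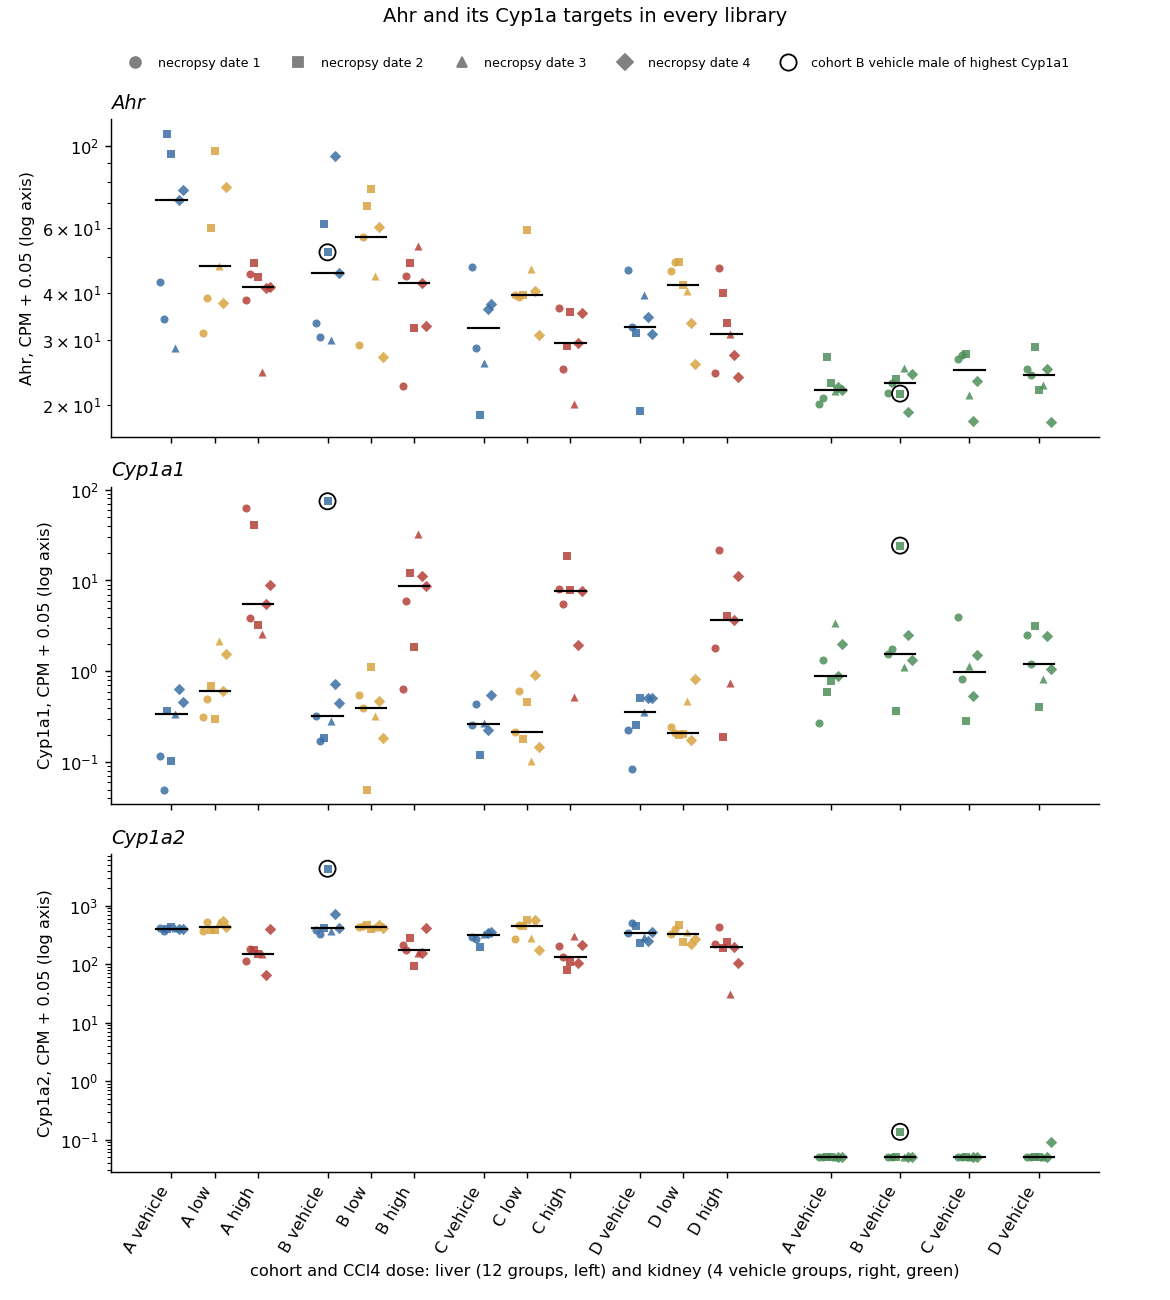
Level of Ahr, Cyp1a1 and Cyp1a2 (CPM, log axis, 0.05 added so that 0 can be drawn) in each liver and kidney library by cohort and CCl4 dose, with bars at group medians and symbols for the 4 necropsy dates. Ahr is widest in vehicle livers of cohorts A and B, Cyp1a1 is raised at the high dose, Cyp1a2 is lower there, and the ringed cohort B vehicle male stands at 74.3 CPM of Cyp1a1 in liver and 24.1 CPM in kidney.

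Ahr was lower at the high dose by less than the fold change of 2 that the study's threshold asks for. Dose effects are called here where the adjusted p is below 0.1 and the log2 difference exceeds 1 in either direction. Over the 4 cohorts, the high dose against vehicle gave a log2 difference of -0.29 (SE 0.12, adjusted p = 0.0349) and the high against the low dose -0.42 (SE 0.12, adjusted p = 0.00267), neither past the fold threshold. The low dose against vehicle gave 0.13 (SE 0.12, adjusted p = 0.517). By cohort, the high-dose difference was -0.68 in A (adjusted p = 0.0196), -0.32 in B (0.285), -0.10 in C (0.79) and -0.05 in D (0.894). Within necropsy dates 1 to 4 the log2 difference between high-dose and vehicle livers, with the cohort in the fit, was -0.09, -0.15, -0.02 and -0.55, and leaving out date 4 moved the pooled value to -0.16 (adjusted p = 0.369). The direction of the medians depended on the scale. In CPM the high-dose median was 0.981 of the vehicle median. TPM divides each count by transcript length and then by the sum over all genes, without TMM scaling. On that scale the medians were 9.01 in vehicle, 12.4 in low-dose and 12.9 in high-dose livers. The fitted difference between high dose and vehicle stayed between -0.31 and -0.16 in all alternatives, that with transcript lengths as offsets included.

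The cohorts, each compared with its own vehicle group and then with cohort A, were not shown to differ in their dose response. For the 6 contrasts of a cohort's low-dose or high-dose effect against that of cohort A, edgeR called 0 of the 3 members and 0% of the genes tested, with 448 to 1567 genes at an unadjusted p under 0.05. For Ahr at the high dose these differences were 0.36 in B, 0.58 in C and 0.64 in D (adjusted p = 0.985, 0.962 and 0.647).

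Ahr was lower in the livers of males with a CCl4-treated F0 grandsire. At vehicle, cohorts A and B together ran from 28.4 to 108 CPM (median 48.5, n = 14) and cohorts C and D from 18.8 to 47.1 (median 32.5, n = 13). The corresponding medians were 52.0 and 40.5 CPM in low-dose livers and 42.1 and 30.2 CPM in high-dose livers. The ranges overlapped at every dose, and 7 of 14 vehicle livers, 6 of 14 low-dose livers and 3 of 14 high-dose livers of cohorts A and B were above every liver of cohorts C and D at that dose.

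The F0 effect, fitted beside the F1 effect and the F2 dose, was -0.50 (SE 0.10, adjusted p = 0.000658) for Ahr. The F0 and F1 effects over all doses, and those in kidney, are called at an adjusted p below 0.1 in genes that average over 50 normalized counts, and 7.34% of genes were so called for F0. Contrasts of ancestry at a single dose, differences between doses or organs in an effect and interactions are called on the adjusted p alone, below 0.1. The members stand in the study's own list of genes with an F0 effect on these same livers, so the F0 contrasts are not independent evidence of their direction. The calls among those genes included all 3 members, each lower with F0 treatment, but for Cyp1a1 and Cyp1a2 they rested on a single vehicle male of cohort B that is described with those genes. Without that male, 1 of 3 members (Ahr, log2 difference -0.50, adjusted p = 0.000834) was called for F0 against 7.38% of genes.

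At vehicle the F0 effect on Ahr was -0.79 (SE 0.18, adjusted p = 0.0245), at the low dose -0.37 (SE 0.17, adjusted p = 0.47) and at the high dose -0.36 (SE 0.17, adjusted p = 0.591). All 3 members were called at vehicle, 0 of 3 at either other dose, against 3.07%, 0.363% and 0.121% of genes. The vehicle calls were few without 1 male of cohort C, the one farthest from the others on the first principal component of the vehicle livers: 583 genes with all livers became 11, with 0 of 3 members called by edgeR and 1626 genes at an unadjusted p under 0.05. For Ahr the value was then -0.77 (adjusted p = 0.113). The F0 effect on Ahr was not shown to differ between doses (low against vehicle 0.41, adjusted p = 1, high against vehicle 0.43, adjusted p = 0.98). Of all genes, 0.716% were called for the difference between the low dose and vehicle and 0% for the high dose against vehicle, where edgeR gave 1026 genes at an unadjusted p under 0.05. The 136 genes behind the former share became 0 in edgeR without the cohort C male, with 466 at an unadjusted p under 0.05, and 89 without the cohort B male.

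Against cohort A, Ahr in vehicle livers was lower in C (log2 difference -1.01, SE 0.26, adjusted p = 0.094) and in D (-0.96, SE 0.25, adjusted p = 0.0193), and in B the difference was -0.40 (SE 0.25, adjusted p = 0.772). In these contrasts, 0.0105% of genes were called for B, 0.274% for C and 5.53% for D. These shares moved with the fit: the 52 genes called for C became 3 without the cohort C male and 10 with transcript lengths as offsets. In fits of the 2 groups alone, edgeR called 0 genes for C, with 1702 at an unadjusted p under 0.05, and 2090 for D in place of 1050. Ahr also stands in a shorter list that the study drew from these livers by both of these contrasts, C and D against A, and they too are not independent evidence of its direction. The difference in C was not past the threshold in a fit of those 2 groups alone (-1.0, adjusted p = 0.421) or without the same cohort C male (-0.98, adjusted p = 0.26). The F1 effect on Ahr was -0.08 (SE 0.10, adjusted p = 0.81), and 0 of 3 members were called for F1 in edgeR's test against 0.0474% of genes, with 1966 genes at an unadjusted p under 0.05 and 18 genes called by DESeq2.

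The high Ahr livers of cohorts A and B fell on 2 of the 4 necropsy dates. Of 42 livers with a control F0 grandsire, 12 exceeded 59.1 CPM, the highest of the 41 livers with a treated one. Of these, 7 were taken on date 2 and 5 on date 4, 6 were vehicle and 6 low-dose livers, 7 belonged to cohort A and 5 to cohort B, and they came from 8 of 16 litters and 5 of 8 sires.

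Vehicle livers show the contrast between dates. On date 2, the vehicle livers of cohorts A and B held 51.6, 61.5, 95.2 and 108 CPM and those of C and D 18.8, 19.2 and 31.2. On date 1 the corresponding values were 30.4, 33.2, 34.0 and 42.9 against 28.4, 32.5, 46.2 and 47.1 CPM. The groups were apart on date 2 and overlapped on date 1.

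Within dates 1 to 4 the F0 difference in log2 level over all doses, with the F1 treatment and the dose in the fit, was 0.04, -0.86, -0.16 and -0.66, from 24, 23, 12 and 24 livers. With the date as a block the F0 effect stayed called (-0.46, adjusted p = 0.00114), as it did without date 2 (-0.33, adjusted p = 0.0622) and without date 4 (-0.42, adjusted p = 0.0608). When each F0 sire was counted once, after removal of the dose means, the 8 control sires averaged from 38.2 to 55.2 CPM and the 9 treated sires from 27.2 to 39.5 CPM. The means of 5 of 8 control sires lay above those of all treated sires, and the log2 difference was -0.42 (SE 0.10, two-sided exact permutation test over 24310 arrangements, p = 0.000494). The test over sires was not planned, was run for the members only and is not corrected. It uses the same livers as the study's list, so it too is not independent evidence of the direction.

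**Figure D2:**
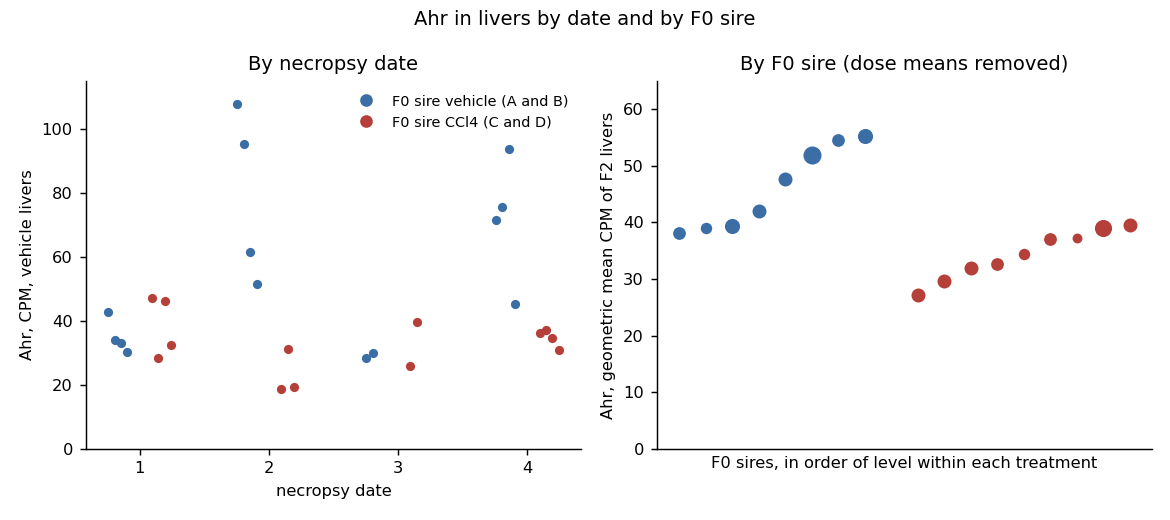
Left, Ahr (CPM) in each vehicle liver by necropsy date, coloured by treatment of the F0 grandsire; right, geometric mean Ahr (CPM) over the F2 livers of each of the 17 F0 sires with dose means removed, point area rising with the number of livers (2 to 9). The livers with a control grandsire stand above the others on dates 2 and 4, and 5 of 8 control sires lie above all 9 treated sires.

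Genes of other lists were called in the same contrast. Of 5 clock genes listed, 4 had an identifier, and all 4 were called for F0: Dbp at 1.15, Nr1d1 at 0.97, Per1 at -0.92 and Arntl at -0.26. An identifier was found for 2 of 4 pericentral, 0 of 4 periportal, 1 of 5 hepatocyte, 2 of 4 macrophage and 1 of 4 kidney tubule genes. Those found were called as well: pericentral Glul (-0.35) and Slc1a2 (-0.55), hepatocyte Tat (-0.44), macrophage Cd163 and Adgre1 (-0.30 each) and the tubule gene Lrp2 (0.27). Identifiers could be paired with symbols only for genes that the study had listed on these samples for their F0 effect, so these calls are no independent evidence of a direction, and their part in the Ahr difference was not tested.

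Cyp1a1, which clears planar aromatic compounds and is the most inducible target, was close to silent in vehicle and low-dose livers and rose at the high dose in most males. It was under 1 CPM in 26 of 27 vehicle livers, 25 of 28 low-dose livers and 4 of 28 high-dose livers, and over 10 CPM in 8 of 28 high-dose livers. In cohort A it ran from 0 to 0.588 CPM in vehicle livers (median 0.293), from 0.246 to 2.13 at the low dose (median 0.564) and from 2.52 to 61.9 at the high dose (median 5.50). All 7 high-dose livers of cohort A were above all vehicle and all low-dose livers of the cohort.

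In cohort B, Cyp1a1 ran from 0.121 to 74.3 CPM in vehicle livers (median 0.270), from 0 to 1.06 at the low dose (median 0.347) and from 0.592 to 32.6 at the high dose (median 8.54). In cohort C it ran from 0.0699 to 0.505 CPM in vehicle livers (median 0.213), from 0.0534 to 0.853 at the low dose (median 0.168) and from 0.476 to 18.7 at the high dose (median 7.68). In cohort D it ran from 0.0337 to 0.460 CPM in vehicle livers (median 0.304), from 0.124 to 0.773 at the low dose (median 0.160) and from 0.138 to 21.8 at the high dose (median 3.64). In cohorts C and D, 6 of 7 high-dose livers were above all vehicle livers of their cohort and 1 was not. A single vehicle liver of cohort B stood above all high-dose livers.

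By median the 4 high-dose groups came first, in the order B, C, A and D, followed by low-dose cohort A, and all 11 neighbouring pairs overlapped. A vehicle liver held a median of 9 Cyp1a1 counts and a high-dose liver 310.5, so vehicle levels carry a large counting error. In 2 livers no count was found, which allows up to 0.1 CPM in the cohort A vehicle liver and 0.0817 CPM in the cohort B low-dose liver (3 counts each, counting error only).

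The high dose raised Cyp1a1 by 3.81 on the log2 scale over the 4 cohorts (SE 0.52, adjusted p = 8e-10), and the median by 21.1-fold. Among all genes, 25.3% were called at the high dose over the cohorts, where 2 of 3 members were called, Cyp1a1 higher and Cyp1a2 lower. Against the low dose the rise was 4.52 (SE 0.51, adjusted p = 4.65e-12), with 15.9% of genes and the same 2 of 3 members called. At the low dose against vehicle the difference was -0.71 (SE 0.56, adjusted p = 0.412), with 6.26% of genes and 0 of 3 members called by edgeR, which gave 6319 genes at an unadjusted p under 0.05.

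By cohort, the high-dose difference in Cyp1a1 was 6.18 in A (SE 1.11, adjusted p = 4.25e-06), 4.77 in C (SE 1.14, adjusted p = 0.000507) and 4.35 in D (SE 1.05, adjusted p = 0.000468). In B it was -0.06 (SE 0.83, adjusted p = 0.96), a group whose vehicle mean was set by 1 liver. Of the members, 2 of 3 were called in A (Cyp1a1 and Cyp1a2), 1 in B (Cyp1a2), 1 in C and 1 in D (Cyp1a1), against 21.7%, 26.4%, 21.7% and 22.6% of genes. At the low dose, 2 of 3 members were called in B, both lower (Cyp1a1 -4.78, Cyp1a2 -1.18), and 0 in A, C and D, against 3.65% of genes in B and 3.7%, 4.46% and 4.25% in the others. Within dates 1 to 4 the high-dose difference in log2 Cyp1a1, with the cohort in the fit, was 5.14, 3.27, 2.95 and 3.74, and that of date 2 was 4.42 without that liver.

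The vehicle liver that stood above all others came from cohort B replicate 4, taken on date 2, and both Cyp1a genes were far from the rest in it. Its Cyp1a1 was 74.3 CPM (2334 counts) against 0 to 0.684 CPM in the other 26 vehicle livers. Its Cyp1a2 was 4297 CPM against 196 to 729 CPM in the others. Its kidney held 24.1 CPM of Cyp1a1 (566 counts) against 0.218 to 3.87 CPM in the other 26 kidneys, and 2 of the 3 Cyp1a2 counts seen in any kidney. The male was therefore the highest of its dose for both target genes in liver and for Cyp1a1 in kidney.

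Ahr itself was not apart in that male, with 51.6 CPM in liver, the seventh highest of 27, and 21.4 CPM in kidney, below the median of the others. Of all liver genes tested, 4 were more than 4-fold above every other vehicle liver in this male, namely Cyp1a2, Cyp1a1 and 2 genes without a symbol here. In the other vehicle males the number of such genes ran from 0 to 40 with a median of 1. In kidney there were 4 such genes of 18374, and Cyp1a1 was the 1 gene shared with liver. Its 2 sequenced brothers, at the low and the high dose, held 1.06 and 1.82 CPM of Cyp1a1 and 399 and 94.5 CPM of Cyp1a2.

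The contrasts that include the cohort B vehicle group were therefore fitted again without this male. The high-dose rise in Cyp1a1 became 5.09 over the cohorts (25.3% of genes called) and 5.05 in cohort B (SE 0.88, adjusted p = 1.91e-06, 26.3% of genes called). The low-dose differences in cohort B became 0.33 for Cyp1a1 (adjusted p = 0.944) and -0.0069 for Cyp1a2 (adjusted p = 1), neither called.

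**Figure D3:**
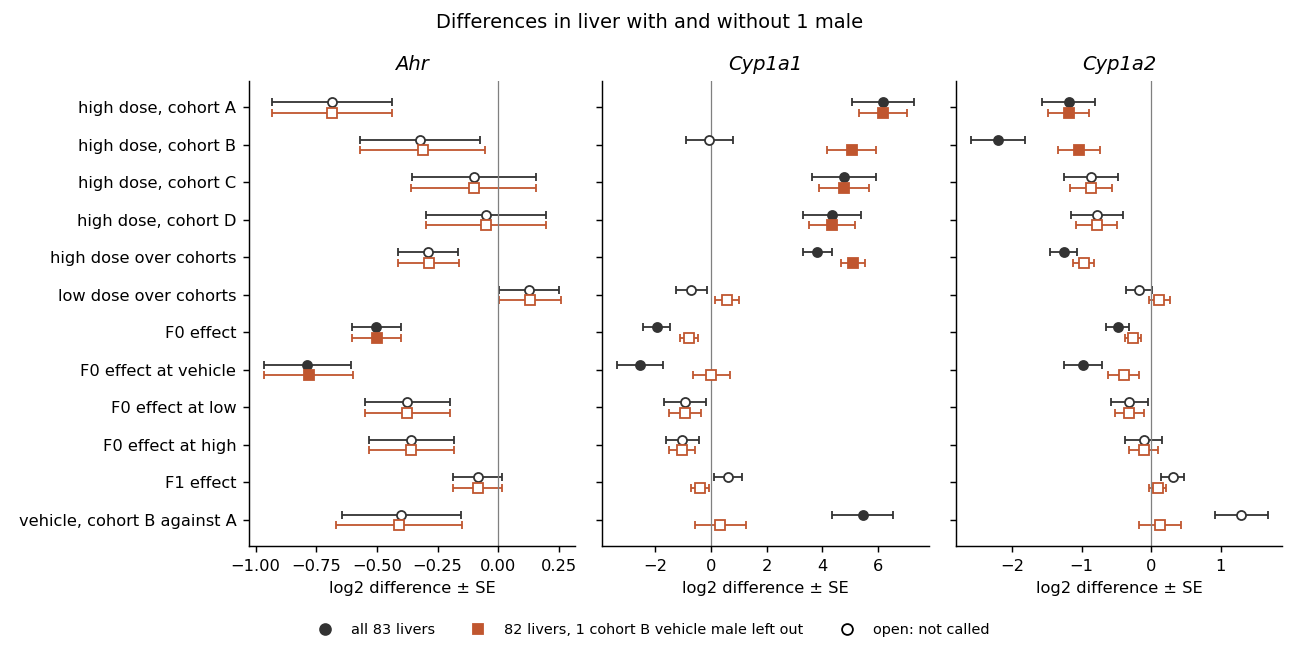
Log2 difference ± SE from edgeR for each member and contrast in liver, with all 83 livers (dark circles) and without the cohort B vehicle male (orange squares), filled where called. Ahr hardly moves, while Cyp1a1 at the high dose in cohort B goes from -0.06 to 5.05 and the F0 effects on both Cyp1a genes are no longer called.

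By ancestry, Cyp1a1 did not show a difference that held without that male. The F0 effect was -1.95 (SE 0.48, adjusted p = 0.00612) with all livers and -0.79 (adjusted p = 0.13) without it. At vehicle the F0 effect was -2.54 (SE 0.83, adjusted p = 0.0995), and without the male 0.011 (adjusted p = 1), where 1 of 3 members was called against 2.76% of genes. The vehicle contrast of cohort B against A was 5.44 (SE 1.09, adjusted p = 0.0726) and became 0.34 (adjusted p = 0.98), where 0 of 3 members and 0.00526% of genes were called.

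Per dose, the Cyp1a1 medians of cohorts A and B against C and D were 0.270 and 0.218 CPM in vehicle livers (without the male), 0.435 and 0.164 in low-dose livers and 7.23 and 4.72 in high-dose livers. The ranges overlapped at each dose. The F0 effect on Cyp1a1 was -0.94 in low-dose livers (SE 0.75, adjusted p = 0.77) and -1.04 in high-dose livers (SE 0.59, adjusted p = 0.672). Over F0 sires the difference was -0.68 (exact permutation test, p = 0.105), or -0.44 without the male (p = 0.172), and the F1 effect was 0.61 (SE 0.50, adjusted p = 0.68), or -0.40 without it (adjusted p = 0.635).

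Cyp1a2, the constitutive member, fell at the high dose while Cyp1a1 rose. In cohort A it ran from 363 to 439 CPM in vehicle livers (median 401), from 364 to 541 at the low dose (median 425) and from 64.98 to 399 at the high dose (median 152). In cohort B it ran from 329 to 4297 CPM in vehicle livers (median 415), from 399 to 474 at the low dose (median 440) and from 94.5 to 424 at the high dose (median 175). In each of these cohorts 6 of 7 high-dose livers were below all vehicle and low-dose livers.

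In cohort C, Cyp1a2 ran from 196 to 357 CPM in vehicle livers (median 311), from 176 to 577 at the low dose (median 442) and from 78.9 to 304 at the high dose (median 133). In cohort D it ran from 227 to 497 CPM in vehicle livers (median 345), from 221 to 462 at the low dose (median 323) and from 31.5 to 428 at the high dose (median 194). Here 4 of 7 high-dose livers of cohort C and 5 of 7 of cohort D were below all vehicle livers of their cohort. The 4 high-dose groups had the lowest medians of all 12, and all 11 neighbouring pairs in the order overlapped.

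Over the cohorts the high dose gave a log2 difference of -1.26 for Cyp1a2 (SE 0.19, adjusted p = 1.92e-08), and the vehicle median was 2.08-fold the high-dose median. Without the cohort B vehicle male it was -0.97 (adjusted p = 4.49e-08), just short of the fold threshold. By cohort it was -1.19 in A (adjusted p = 0.0079), -2.21 in B (2.43e-06, or -1.04 and 0.00389 without the male), -0.87 in C (0.0662) and -0.78 in D (0.0833), and those of C and D were short of the fold threshold. The low-dose difference over the cohorts was -0.17 (SE 0.19, adjusted p = 0.573), or 0.12 without the male (adjusted p = 0.649). Within dates 1 to 4, in the same kind of fit, the high-dose difference was -0.87, -1.56, -1.51 and -1.17, and that of date 2 was -1.08 without the male.

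Other genes of pericentral hepatocytes moved with dose, though not alike. Of 4 pericentral genes listed, 2 had an identifier. Slc1a2, a glutamate transporter of the cells next to the central vein, had medians of 6.04, 6.69 and 0.627 CPM at vehicle, low and high dose and fell at the high dose by 2.85 on the log2 scale (adjusted p = 3.05e-19). Glul, the glutamine synthetase of the same cells, had medians of 330.5, 148 and 269 CPM, fell at the low dose by 1.07 (adjusted p = 1.64e-15) and differed at the high dose by -0.33 (adjusted p = 0.00148), short of the fold threshold. The hepatocyte gene Tat differed at the high dose by -0.12 (adjusted p = 0.588). The part of these cells in the fall of Cyp1a2 was not tested.

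By ancestry, the medians of Cyp1a2 in cohorts A and B against C and D were 401 and 333 CPM in vehicle livers (without the male), 433 and 339 in low-dose livers and 166 and 191 in high-dose livers. At vehicle 6 of 13 livers, and at the low dose 8 of 14, with a treated grandsire were below all those with a control one. At the low dose 0 of 14 livers with a control grandsire were above all those with a treated one. The highest values there were 541 and 577 CPM, so livers with a treated grandsire ranged wider on both sides. The F0 effect was -0.31 at the low dose (SE 0.26, adjusted p = 0.794) and -0.11 at the high dose (SE 0.26, adjusted p = 0.955), neither called. At the high dose the groups overlapped almost fully. Over all doses the F0 effect was -0.48 (SE 0.17, adjusted p = 0.0701) with all livers and -0.26 (adjusted p = 0.2) without the male.

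Over F0 sires the Cyp1a2 difference was -0.45 (SE 0.13, two-sided exact permutation test, p = 0.00193), and -0.34 without the male (exact p = 0.0101), both past 0.05. These p-values are not corrected, and the share of all genes that would pass such a test was not computed. Within dates 1 to 4, fitted as for Ahr, the F0 difference was -0.0048, -0.54, -0.53 and -0.58, and that of date 2 was -0.27 without the male. The F0 effect at vehicle was -0.98 (adjusted p = 0.0457), or -0.40 without the male (adjusted p = 0.47), and the F1 effect was 0.31 (SE 0.17, adjusted p = 0.502).

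The organs differed in the order of the 3 genes. Ahr was higher in liver than in kidney, Cyp1a1 was higher in kidney in nearly all males, and Cyp1a2 was hardly detected in kidney. In kidney, Ahr ran from 20.1 to 26.9 CPM in cohort A (median 21.9), from 19.04 to 25.1 in B (median 22.8), from 18.04 to 27.4 in C (median 24.9) and from 17.9 to 28.6 in D (median 23.98). The 4 kidney groups overlapped with one another, and the highest kidney, at 28.6 CPM, lay above 1 of 7 vehicle livers of cohort A, 0 of 7 of B, 3 of 6 of C and 1 of 7 of D.

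Liver exceeded kidney in Ahr in 25 of 27 males by CPM within each organ, with a median ratio of 1.73, and in 23 of 27 by TPM, with a median ratio of 1.69. In a joint fit of both organs the log2 difference was 1.62 (SE 0.13, adjusted p = 6.17e-17). With the male as a replicate block it was 1.53, and in DESeq2 1.59. That scale depends on the TMM factors, which averaged 0.717 in liver and 1.40 in kidney, a log2 difference of 0.96 in favour of liver values. Of the 19292 genes tested, 46.9% were called between the organs, and of the members Ahr and Cyp1a2 were.

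In kidney the F0 effect on Ahr was 0.08 (SE 0.07, adjusted p = 0.744) and the F1 effect -0.01 (SE 0.07, adjusted p = 1). For F0, 0 of the 2 members tested were called in edgeR's test against 0.0109% of genes, with 1599 at an unadjusted p under 0.05 and 73 called by DESeq2. For F1, 0 of 2 members and 0% of genes were called, with 1225 at an unadjusted p under 0.05. The F0 effect in liver minus that in kidney was -0.87 for Ahr (SE 0.23, adjusted p = 0.107), so the organs were not shown to differ, and 0% of genes were called for this interaction by edgeR, with 1557 at an unadjusted p under 0.05.

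Cyp1a1 in kidney ran from 0.218 to 3.39 CPM in cohort A (median 0.845), from 0.318 to 24.1 in B (median 1.504), from 0.234 to 3.87 in C (median 0.935) and from 0.358 to 3.11 in D (median 1.15). Kidney exceeded liver in 25 of 27 males, and the kidney median was 4.27-fold the liver median. The joint fit gave a log2 difference of liver against kidney of -0.54 (SE 0.60, adjusted p = 0.398), which became -1.62 (adjusted p = 2.05e-06) without the cohort B male, -1.34 (adjusted p = 9.28e-05) with the male as a block and -2.09 (adjusted p = 2.48e-09) in DESeq2, which replaced 1 outlying count. The F0 effect on Cyp1a1 in kidney was -0.82 (SE 0.56, adjusted p = 0.688), or 0.11 without that male (adjusted p = 0.956), and the F1 effect was 1.13 (SE 0.56, adjusted p = 0.762), or 0.22 without the male (adjusted p = 0.976).

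Cyp1a2 had 3 counts in all 27 kidney libraries together, and 25 of them held none. Over all kidneys this is 0.00391 CPM (95% exact Poisson interval 0.000806 to 0.0114), against 516 CPM over the 27 vehicle livers. The ratio of liver to kidney was 132139 (95% interval 45215 to 640754, counting error only). The cohort B male held 2 of the 3 counts, and without it the liver level was 376 CPM and the ratio 280016, from 1 kidney count (95% interval 50257 to 11060022). The gene was not tested within kidney.

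**Figure D4:**
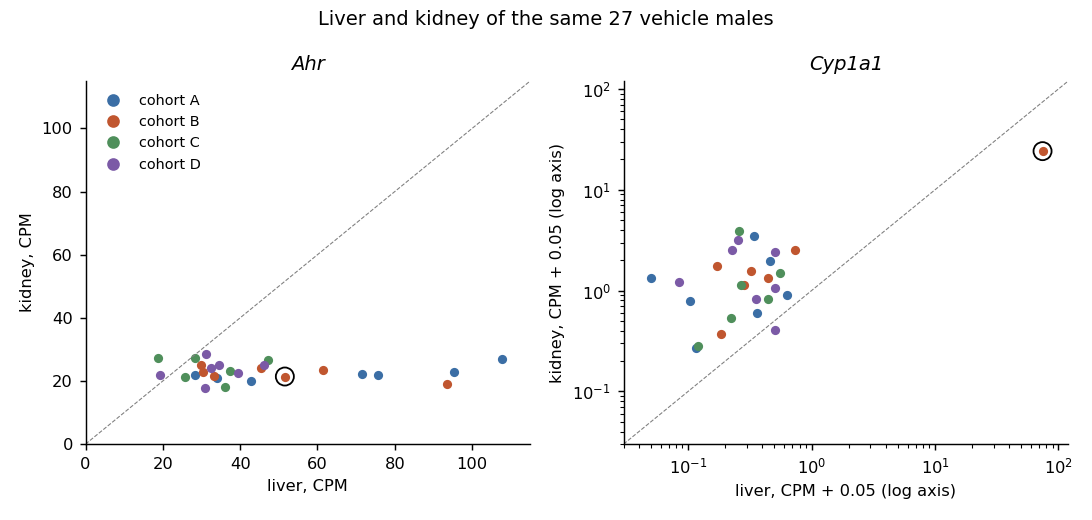
Kidney against liver level in the same 27 vehicle males for Ahr (CPM, linear axes) and Cyp1a1 (CPM with 0.05 added, log axes), coloured by cohort, with the line of equal levels dashed. Ahr lies below the line in 25 of 27 males with kidney values between 17.9 and 28.6 CPM whatever the liver value, and Cyp1a1 lies above it in 25 of 27 males, with the ringed cohort B male high in both organs.

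Levels of different genes can be compared only per transcript length, in TPM. In vehicle livers the median was 9.01 TPM for Ahr, 0.124 for Cyp1a1 and 209 for Cyp1a2, and Cyp1a2 exceeded Cyp1a1 in 27 of 27 livers. In high-dose livers the medians were 12.9, 4.12 and 145 TPM, Cyp1a2 exceeded Cyp1a1 in 28 of 28 and Cyp1a1 exceeded Ahr in 4 of 28. The median ratio of Cyp1a2 to Cyp1a1 was 1916 in vehicle livers, 1876 at the low dose and 49.2 at the high dose. In kidney the order was Ahr (median 6.06 TPM), Cyp1a1 (0.526) and Cyp1a2 (0).

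The members also differed in how much they varied between males of a group. The SD of log2 levels within groups of vehicle livers was 0.58 for Ahr, 1.82 for Cyp1a1 and 0.72 for Cyp1a2, larger than in 91.2%, 99.3% and 95.4% of 12254 genes, whose median was 0.29. In high-dose livers it was 0.36, 1.95 and 0.87, and for Ahr larger than in 57.1% of genes. In kidney Ahr had an SD of 0.18, near the median of 0.20 over genes, and Cyp1a1 1.36. Without the cohort B male, the vehicle values were 0.59 for Ahr, 1.01 for Cyp1a1 and 0.33 for Cyp1a2, larger than in 91.9%, 98.1% and 60.9% of genes, so the place of Cyp1a2 rested on that male.

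With all males included, none of the relations between a target and Ahr, or between the targets, passed correction (smallest adjusted p = 0.235 for Pearson's r and 0.184 for Spearman's rho, by permutation). Relations were computed within each dose on log2 CPM after removing group means, for 10 pairs of genes and sample sets, by permutation within groups (100000 resamples, two-sided). With Ahr on the x axis, Cyp1a1 in vehicle livers gave Pearson's r = 0.222 (permutation p = 0.345, adjusted 0.575) and Spearman's rho = 0.272 (permutation p = 0.201, adjusted 0.402). In low-dose livers r was -0.00546 (permutation p = 0.98, adjusted 0.98) and rho 0.0679 (p = 0.752, adjusted 0.835). Without the 2 livers farthest from the median of Ahr, r was 0.292 and 0.0321. Within dates 1, 2 and 4 it was 0.603, 0.023 and -0.00467 in vehicle livers (0.401, 0.0112 and 0.389 without the cohort B male) and 0.0827, 0.0342 and 0.464 in low-dose livers, from 6 to 8 livers each.

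In high-dose livers, where Cyp1a1 varied most, Ahr and Cyp1a1 gave r = 0.454 (permutation p = 0.0241, adjusted 0.235) and rho = 0.425 (p = 0.0368, adjusted 0.184). Without the 2 livers farthest in Ahr, r was 0.301. Within dates 1, 2 and 4, of 8 livers each, it was 0.693, 0.0148 and -0.41, and date 3 held too few livers. These values differed in sign, and after removal of group and date means r was 0.415 over 24 livers (permutation p = 0.234, adjusted 0.474).

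**Figure D5:**
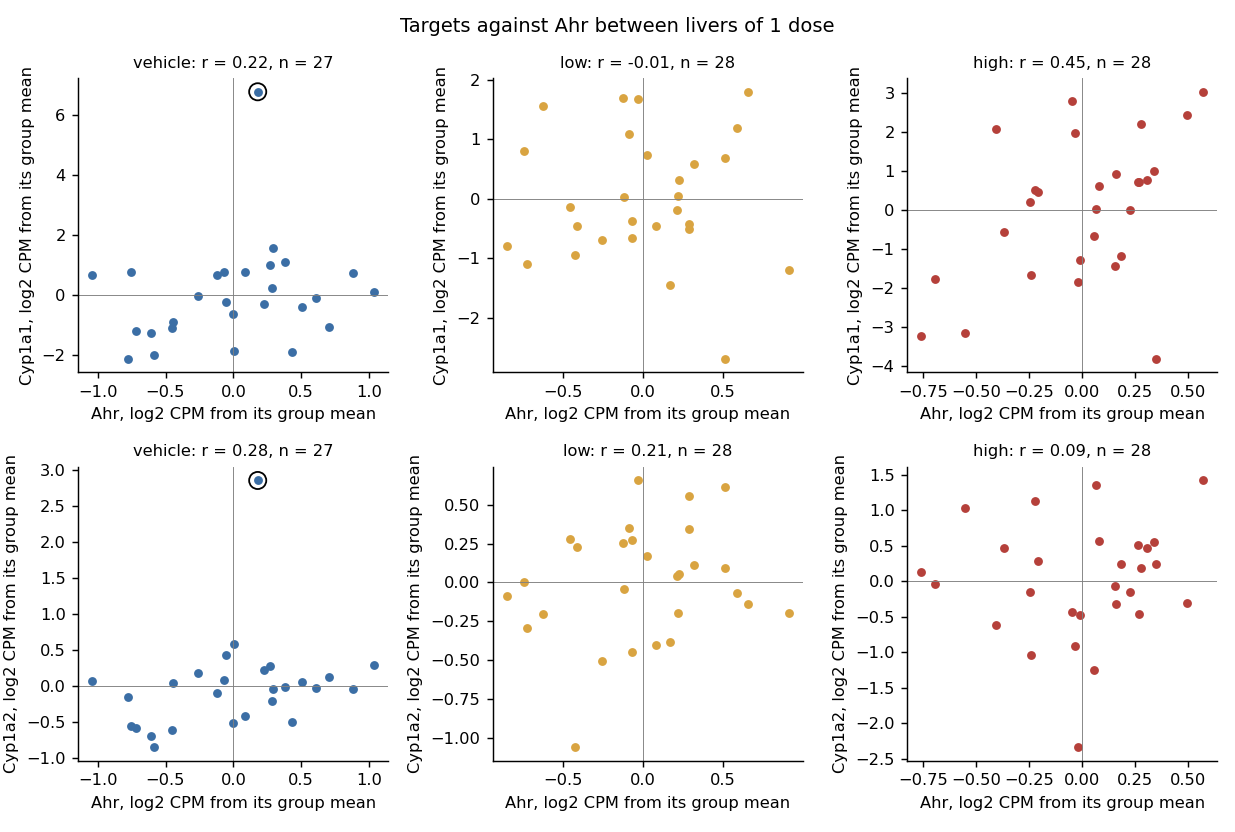
Deviation of log2 CPM from the group mean for Cyp1a1 (top) and Cyp1a2 (bottom) against that of Ahr, for livers at vehicle, low and high dose, each panel headed by Pearson's r and n. The largest r is that of Cyp1a1 at the high dose (0.45, n = 28), and the ringed cohort B vehicle male lies far above the others for both targets at a middling Ahr.

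For Cyp1a2 against Ahr, r was 0.281 in vehicle livers (permutation p = 0.2, adjusted 0.399), 0.207 in low-dose livers (p = 0.165, adjusted 0.399) and 0.0869 in high-dose livers (p = 0.679, adjusted 0.849). The rho values were 0.378 (permutation p = 0.0366, adjusted 0.184), 0.194 (p = 0.254, adjusted 0.424) and 0.204 (p = 0.331, adjusted 0.473). Without the 2 livers farthest in Ahr, r was 0.304, 0.275 and 0.123. Within dates 1, 2 and 4, r was 0.335, -0.0894 and 0.25 in low-dose livers and 0.463, 0.726 and 0.0506 in high-dose livers.

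Without the cohort B male, r in the remaining 26 vehicle livers was 0.488 (permutation p = 0.00482, adjusted 0.0482), and rho 0.397 (adjusted 0.184). Within dates 1, 2 and 4, with the male kept, it was 0.473, 0.209 and 0.544, and without it 0.386, 0.643 and 0.773. After removal of group and date means r was 0.0778 over 22 livers with the male kept and 0.543 over 20 without it (permutation p = 0.339, adjusted 0.424). Of the 4 ways of computing r that were run with or without the male and the dates, the relation passed the correction in 1, without the male and with dates not removed.

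The targets were also compared with each other. In vehicle livers Cyp1a1 and Cyp1a2 gave r = 0.761 (permutation p = 0.0558, adjusted 0.235) and rho = 0.352 (adjusted 0.238), and without the cohort B male r was 0.0493. In low-dose livers r was 0.345 (adjusted 0.235) and rho 0.361 (adjusted 0.227), and in high-dose livers r was 0.0963 (adjusted 0.849) and rho 0.0777 (adjusted 0.835). Without the 2 livers farthest in Cyp1a1, r was 0.298, 0.479 and 0.157 in the 3 doses. Within dates 1, 2 and 4 it was 0.151, 0.912 and 0.185 in vehicle livers (-0.343, -0.0844 and 0.0878 without the cohort B male), 0.449, 0.0313 and 0.616 in low-dose livers and 0.243, 0.00735 and 0.122 in high-dose livers. The high dose, at which both targets changed on average, thus gave no relation between them from male to male that passed the test.

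In kidney Ahr and Cyp1a1 gave r = 0.0535 (permutation p = 0.792, adjusted 0.88) and rho = 0.044 (adjusted 0.838), and -0.05 without the 2 kidneys farthest in Ahr. Within dates 1, 2 and 4 r was 0.618, -0.14 and 0.472, and 0.557, 0.546 and 0.513 without the cohort B male. Over all dates r was 0.13 without that male, and 0.161 with it kept after removal of group and date means. With both the male and the date means removed, r was 0.445 (permutation p = 0.192, adjusted 0.406) and rho 0.54 (p = 0.135, adjusted 0.436) over 20 kidneys. Between the organs of a male, Ahr gave r = 0.0459 (permutation p = 0.812, adjusted over 2 relations 0.812) and rho = 0.148 (adjusted 0.468). Cyp1a1 gave r = 0.61 (permutation p = 0.0199, adjusted 0.0398) and rho = 0.366 (adjusted 0.133), and r was 0.38 without the 2 males farthest in liver and 0.239 without the cohort B male (adjusted 0.559), so it did not hold without that male. Over 68 pairs of littermates, the correlation of deviations from group means was 0.294 for Ahr, 0.00633 for Cyp1a1 and -0.18 for Cyp1a2, given as a description because pairs share males.

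The genes most like each member were sought by the correlation of deviations from the 12 group means over 83 livers, among 1478 genes with a symbol. These carry a symbol here because the study listed them for an F0 effect on these samples, and the values are a description without a test. For Ahr the 5 highest were Csnk1d, a kinase of the circadian clock (r = 0.683), Rapgef5 (0.653), the interleukin receptor gene Il6r (0.643), Tp53inp1 (0.601) and Baiap2l1 (0.6). Those of Csnk1d and Il6r with Ahr were highest in vehicle livers, at 0.837 and 0.869.

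For Cyp1a2 the 5 highest were Ctdsp1 (0.611), the vasopressin receptor gene Avpr1a (0.58), Samd11 (0.553), LOC680875 (0.549) and Adgrl1 (0.531), and for each of them r was highest in high-dose livers, between 0.772 and 0.835. For Cyp1a1 they were lower, from 0.381 to 0.437, led by Ggt1, which cleaves glutathione, and followed by Cyp2c24, Rasl10b, Akr7a3 and Crb3.

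Of the other genes of the pathway, 1 of 14 could be matched to an identifier. None of the 6 genes listed for the receptor complex and neither of the 2 feedback genes, Ahrr and Tiparp, was matched, so they were not analysed here. The matched gene was Nfe2l2, the transcription factor of the oxidative stress response and a reported target of the receptor. It had medians of 127, 127 and 117 CPM in vehicle, low-dose and high-dose livers, differed by -0.17 at the high dose (SE 0.09, adjusted p = 0.0857) and by 0.18 with F0 (SE 0.07, adjusted p = 0.127), and was not called in either contrast.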

How the data were processed

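The liver and kidney RNA was sequenced as stranded mRNA libraries, 50 bases paired. The deposited values are estimated counts per gene, which the authors made with Salmon 0.14.0 and tximport in R 3.5.0, with average transcript lengths beside them. The deposited counts were whole numbers and were tested here without change, each male as 1 replicate, grouped by the labels.

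A gene entered the test if its counts summed to more than 10 within some group. The test was edgeR's quasi-likelihood test (edgeR 4.0.16, R 4.3.3) with TMM scaling and Benjamini-Hochberg adjustment over all genes tested. Every adjusted p of a contrast is from that fit unless limma-voom (limma 3.58.1) or DESeq2 1.42.0 is named. Log2 levels used a prior count of 2. TPM came from counts divided by the deposited average transcript lengths. Intervals and limits cover counting error only. The members and lists were chosen with earlier results of these data known. The correlations were computed for 10 and 2 relations, fewer than planned, since Cyp1a2 had 3 counts in kidney. The genes named as most like a member were the 5 of highest correlation.

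The litter, taken from the study's pedigree, pairs males across doses. Over 68 such pairs the deviations from group means correlated at a median of 0.0801, and over 0.1 in 26, and a fit with the litter as a block was an alternative. The liver and kidney of each of 27 males are paired by animal (median correlation 0.104, over 0.1 in 15). The test step was tested on simulated data.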

Additional observations from a re-analysis of the deposited data

Results flagged for a closer look

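Of 44 sets of 4 to 10 samples examined for a single far value, 3 held one, and chance gives about 1 in 20. Ahr in cohort A at the high dose was 24.6 CPM in 1 liver of date 3, and the next lowest was 38.4 CPM. Cyp1a1 in the cohort B vehicle livers was 74.3 CPM in replicate 4, and the next highest was 0.684 CPM. Cyp1a2 was 4297 CPM in the same liver, and the next highest was 729 CPM.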

How the results depend on the processing

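Of the alternative values computed for results that answer a comparison, 406 kept direction and side of the threshold, 28 were no longer past it, 4 came past it, 16 reversed and 14 counts moved, and the cause was not tested in any of them. The F0 effect on Ahr stayed called in every alternative run, with differences from -0.77 to -0.33, and from -0.68 to -0.33 when 1 necropsy date was left out. The high-dose rise in Cyp1a1 over the cohorts stayed called throughout.

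With 1 date left out, the low-dose difference over the cohorts ran from -0.94 to 0.55 for Cyp1a1 and from -0.28 to 0.05 for Cyp1a2, and the high-dose difference in Cyp1a2 from -1.39 to -0.90 (high against low dose -1.18 to -0.96). The F0 effect ran from -2.26 to -0.83 for Cyp1a1 and from -0.67 to -0.29 for Cyp1a2, where leaving out date 2 (which held the cohort B male) or date 4 (-0.39) ended the call, and the F1 effect on Cyp1a1 from -0.22 to 0.64. The number of genes called ran from 588 to 1170 for F0 and from 1 to 112 for F1, against 1394 and 9 with all dates.

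Leaving out 1 vehicle male was chosen after seeing the data. Each pair of values here is without the cohort B vehicle male (replicate 4) and without the cohort C vehicle male (replicate 2), in that order. Over the cohorts, the low-dose difference was 0.57 and -0.67 for Cyp1a1 and 0.12 and -0.18 for Cyp1a2, and the high-dose difference in Cyp1a2 was -0.97 and -1.27. In cohort B the low-dose difference was 0.33 and -4.78 for Cyp1a1 and -0.0069 and -1.18 for Cyp1a2, the high-dose difference in Cyp1a1 was 5.05 and -0.062, and that in Cyp1a2 minus the same in cohort A was 0.15 and -1.02.

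The F0 effect at vehicle was -0.78 and -0.77 for Ahr, 0.011 and -2.62 for Cyp1a1 and -0.40 and -0.97 for Cyp1a2, and without the cohort C male none was called. The F0 effect on Cyp1a1 at the low dose minus that at vehicle was -0.95 and 1.68, and at the high dose -1.05 and 1.58. Among vehicle livers, Cyp1a1 in B against A was 0.34 and 5.44, Ahr in C against A was -1.01 and -0.98 and Cyp1a1 in C against A was 0.074 and -0.085. The numbers of genes called were 1401 and 1268 for F0 and 16 and 29 for F1. They were 525 and 11 for F0 at vehicle (583 with all livers), 89 and 0 for its difference at the low dose (136 with all livers, and 466 at an unadjusted p under 0.05 in edgeR for the 0), 1 and 7 for vehicle B against A (2 with all) and 58 and 3 for C against A (52 with all).

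Without the cohort B male alone, the F0 effect was -0.79 for Cyp1a1 and -0.26 for Cyp1a2, and for Cyp1a1 the F1 effect was -0.40, the kidney F0 effect 0.11 and the organ difference -1.62. The relation of Ahr and Cyp1a2 in vehicle livers was then 0.49, and that of Cyp1a1 between organs 0.24. In fits of only the groups compared, the calls were lost for Cyp1a2 at the low dose in cohort B (-1.21), Cyp1a1 in vehicle cohort B against A (5.48) and Ahr in C against A (-1.0). With transcript lengths as offsets the last was -0.92 and not called. Genes called at vehicle then numbered 0 for B, 0 for C and 2090 for D against A in the fits of 2 groups (edgeR, 1813, 1702 and 4153 at an unadjusted p under 0.05) and 1, 10 and 572 with the offsets, against 2, 52 and 1050.

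For F0, the calls of Cyp1a1 and Cyp1a2 were lost with the F0 sire (-0.87 and -0.39) or the litter (-0.89 and -0.39) as a correlated block in limma-voom and in vehicle males alone (-3.21 and -0.999), and that of Cyp1a2 (-0.48) at an adjusted p under 0.05. Genes called for F0 then numbered 891 at 0.05 and 178 in vehicle males alone. DESeq2 gave 0.13 for Cyp1a1 with F0 in kidney and -2.09 between organs, called 18 genes for F1 and 73 for F0 in kidney, and the date as a block gave 18 and 7. Without a filter, 0 genes were called for F0 in kidney by edgeR, against 2 with it.

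With the animal as a replicate block the organ difference in Cyp1a1 was called (-1.34, adjusted p = 9.28e-05). With the litter as a replicate block the high-dose differences were -0.29 (Ahr), 4.38 (Cyp1a1) and -1.14 (Cyp1a2), and no call of a member changed in the dose effects over the cohorts. On log2 TPM the high-dose relations of Cyp1a2 became -0.078 with Ahr and -0.0027 with Cyp1a1. After removal of date means the relation of Ahr and Cyp1a1 was -0.072 in vehicle livers (0.202 without the cohort B male) and 0.25 in low-dose livers, and that of Cyp1a1 between organs 0.65 (permutation p adjusted 0.895).

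Cyp1a1 rests on few counts in vehicle and low-dose livers, so changes among them are imprecise. The 4 dates hold at most 8 livers a dose, so relations within a date are wide.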
